A study of Canis lupus familiaris with 55 samples.

Results

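The steroidogenic enzymes and Leydig genes described here are 10 genes chosen by name: *STAR*, *CYP11A1*, *CYP17A1*, *CYP19A1*, *HSD17B1*, *HSD17B3*, *CYB5A*, *POR*, *INSL3* and *LHCGR*. A locus of the discovery assembly, a set of 58781 loci built from the RNA-seq reads with the dog annotation as a guide, carried the name of 9 of them, and *POR* had none. *STAR*, *CYP11A1*, *CYP17A1*, *HSD17B3*, *CYB5A*, *CYP19A1* and *LHCGR* had a locus of their own. The reads of *INSL3* were counted in a locus shared with *JAK3*, and those of *HSD17B1* in a locus shared with *ATP6V0A1* and *NAGLU*, so their values are values of the whole locus.

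The libraries were made from gonads of canine embryos in a study of XX disorder of sex development (XX DSD), in which an XX dog without the SRY gene develops testicular tissue. XX DSD gonads at risk, and the gonads of their XY littermates, came from an American cocker spaniel and beagle pedigree in which the trait segregates. Controls of both sexes came from beagle parents that were wild type, without the insertion that the study followed. Those of d34 (day of gestation, counted from the luteinizing hormone surge of the dam) were pools of 6 XX and 7 XY embryos. Ranges and medians over a sex are of single embryos and leave out these pools. At d35 there were 9 XX DSD gonads at risk (4 homozygous and 5 heterozygous for the insertion that the study followed) and 4 XY littermates (3 homozygous and 1 heterozygous), with no control of that day. At d37-39 there were 8 XX DSD gonads at risk (6 homozygous, 2 heterozygous), 5 homozygous XY littermates, 6 XX controls and 6 XY controls. At the oldest ages there were 6 homozygous XX DSD gonads at risk of d41-44, 3 XY littermates of d41-42 (1 homozygous, 2 heterozygous), 3 XX controls of d44 and 3 XY controls of d44. Whether a gonad at risk was affected was not known, since a gonad pair was too small for both sequencing and histology. The labels give d41 for C3694, C3696 and their XY littermate C3691, which the study lists at an earlier day by the hormone surge and restaged, on development and on clustering by expression, to between d39 and d42. Their place in the oldest group thus rests in part on expression itself. Pedigree went together with breed and with genotype at the insertion. The study pooled the libraries of d35-44 for sequencing by group, at risk or control. The d44 controls of both sexes came from 1 litter and the d37 and the d39 controls from 1 litter each. Pedigree, breed, genotype, sequencing pool, litter and, at the oldest ages, day therefore cannot be told apart. Each library was 1 gonad pair, and littermates are not fully independent, so p-values measure the spread between these embryos.

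Steroid hormone synthesis starts when *STAR* brings cholesterol to the inner mitochondrial membrane, where *CYP11A1* cuts its side chain to give pregnenolone. *CYP17A1*, with electrons from *POR* and help from *CYB5A*, turns the product into androgens, *HSD17B3* makes testosterone, and *CYP19A1* (aromatase) and *HSD17B1* make oestrogens. In the fetal testis the first steps run in Leydig cells, which also carry the luteinizing hormone receptor *LHCGR* and secrete *INSL3*, the hormone that guides descent of the testis. Whole gonads were measured, so fewer cells of a type and less RNA per cell cannot be told apart.

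Some libraries stood apart in the make-up of the table. Loci without a gene name took 22.4 to 82.8% of the summed FPKM (fragments scaled by transcript length and by the library's mapped total) in 24 libraries, namely 13 of d35, 10 of the DSD pedigree at d37-39 and the XY control A1099, and 5.79 to 13.4% in the other 31. In 4 XY libraries (A1099, C3627, C3637 and C3638) 6201 to 8064 unnamed loci reached 1 FPKM, against 1884 to 4356 in the other 51. All results of d37-39 were therefore also run without these 4, and the values that changed a call are given below. The d35 and d39 libraries of the DSD pedigree differ from the d37-39 controls in this share, and its part in the pedigree comparisons was not tested. In the older group the relative depth of the XX DSD gonads at risk was 0.4 of that of the XX controls (exact two-sided permutation test, p = 0.0119, the smallest that 84 arrangements allow).

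By the ratio of mean levels the sexes differed most in *HSD17B3*, the enzyme of the last step to testosterone (locus CFA1:70550869-70600859, plus strand). In XX gonads it was between 0.0394 and 0.726 FPKM, with a median of 0.152 over 32 libraries of single embryos. In XY gonads it was between 21.2 and 68.45 FPKM, with a median of 51.9 over 21 libraries. No XX library reached the lowest XY library at any age. All XX libraries lay under the limit of 1 FPKM for testing, so this gene was tested only through its XY level. Mean levels were 58.9 ± 7.97 FPKM (SD, n = 6) in XY controls of d37-39 and 0.134 ± 0.0753 (n = 6) in XX controls, a difference of 5.71 ± 0.09 (SE) on the log2(FPKM + 1) scale, which understates changes of genes this low (limma, adjusted p = 1.22e-12). The difference was 5.04 ± 0.16 between XY littermates and XX DSD gonads at risk at d35, 5.47 ± 0.14 at d37-39 and 5.17 ± 0.22 at d41-44, and 4.55 ± 0.12 between the d44 controls (adjusted p from 9.52e-11 to 1.44e-05). In the d34 pools *HSD17B3* was at 4.94 FPKM in XY and 0.274 in XX, with 1 pool of each and no test.

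*STAR* (CFA16:27326036-27337819, plus strand) was higher in XY gonads in all 5 comparisons of sex. XX controls of d37-39 ran from 121 to 746 FPKM with a median of 209.6, and XY controls from 1542 to 3156 with a median of 2023. In the d44 controls XX gonads had 174.7, 92.2 and 150.4 FPKM, and XY gonads 3295, 4186 and 3851. XY littermates had 350.2, 1491, 1382 and 1970 FPKM at d35, then 1995, 2013, 2037, 2980 and 3168 at d37-39, and 2295, 3385 and 3919 at d41-42. The sexes did not overlap within any of the 5 comparisons, and the d35 XY embryo C3574, at 350.2, was far below its group. C3574 was the only XY embryo of its litter, whose XX gonads had 95.3, 275, 123 and 43.2 FPKM. The other XY embryos of d35 (C3617, C3618 and C3619) all came from another litter, with C3616 (194) as its only XX gonad. Embryo and litter therefore cannot be told apart for C3574. The differences were 3.05 ± 0.39 in controls of d37-39, 4.80 ± 0.25 at d44, 2.76 ± 0.51 at d35, and 2.77 ± 0.31 and 3.99 ± 0.59 in the DSD pedigree at the later ages (adjusted p from 3.77e-05 to 0.00184). The last set XY littermates of d41-42 against XX gonads of d41-44. Among these, XX gonads had 546 and 385 FPKM at d41 and at most 115 at d43-44, so its size mixes sex with day and litter.

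*CYP11A1* (CFA30:37472208-37487340, minus strand) was higher in XY gonads too, by 1.54 to 3.14 on the log2 scale. XX controls of d37-39 ran from 70.2 to 281 FPKM with a median of 99.2, and XY controls from 298 to 555 with a median of 480. XY littermates had 122, 701, 475 and 650 FPKM at d35, 483, 777, 569, 738 and 629 at d37-39, and 445, 343 and 171 at d41-42. The lowest XY libraries of d35 and d41-42 lay inside the range of the XX gonads of their pedigree, while the sexes did not overlap in the other 3 comparisons. The differences were 1.85 ± 0.30, 3.14 ± 0.16, 1.77 ± 0.48, 1.54 ± 0.24 and 2.06 ± 0.55 for controls of d37-39 and d44 and for the DSD pedigree at d35, d37-39 and d41-44 (adjusted p from 0.000102 to 0.021). At d35 the call was lost without the XY embryo C3618 (adjusted p = 0.079), C3619 (0.0622) or C3617 (0.0777), and at d41-44 without C3691 (0.0887) or C3518 (0.073).

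*CYP17A1* (CFA28:15282085-15299121, minus strand), the enzyme that commits the product to androgens, had the highest median of the 9 in XY gonads, 3913 FPKM. XX controls of d37-39 ran from 192 to 1288 FPKM with a median of 365, and XY controls from 2169 to 4163 with a median of 3464. XY littermates of d35 had 562 FPKM in C3574 and 2281 or more in the other 3, and they had 3474 to 4708 at d37-42. At d35 C3574 (562) lay below the highest XX gonad (607.6), and the sexes did not overlap in the other 4 comparisons. The differences were 2.88 ± 0.39 and 4.31 ± 0.15 in controls of d37-39 and d44, and 2.31 ± 0.55, 2.33 ± 0.27 and 3.24 ± 0.52 in the DSD pedigree (adjusted p from 2.66e-05 to 0.00827). In the d34 pools XY was not the higher one, at 93.1 FPKM against 135 in XX.

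*CYB5A* (CFA1:5070803-5115714, plus strand), the cytochrome that helps *CYP17A1* cut to androgens, was abundant in every library, and over all ages the sexes shared most of their range. It ran from 943 to 1748 FPKM in XX gonads (median 1320) and from 964 to 2044 in XY gonads (median 1413). Sex differed in 1 of 5 comparisons, at d35, where XY littermates had 2044, 1896, 1853 and 1938 FPKM and XX gonads 1012 to 1521 (0.62 ± 0.13, adjusted p = 0.00491). In controls of d37-39 the difference was -0.01 ± 0.13 (adjusted p = 0.973). In d44 controls XY gonads, at most 1558 FPKM, lay below XX gonads, at least 1570, and the difference did not pass (-0.24 ± 0.10, adjusted p = 0.123). *CYB5A* is also used outside steroid synthesis, which the level in whole gonads cannot separate.

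*CYP19A1* (CFA30:16954184-16988455, minus strand), the aromatase, was low in both sexes and went the other way. It was 0.274 to 3.51 FPKM in XX gonads (median 1.98) and 0.00488 to 0.988 in XY gonads (median 0.224), so that the sexes overlapped between 0.274 and 0.988. All XY libraries lay under the limit of 1 FPKM for testing, so this gene was tested only through its XX level. XX controls of d44 had 2.475, 2.201 and 3.512 FPKM and XY controls 0.227, 0.523 and 0.494. It was lower in XY in controls of d37-39 (-1.14 ± 0.18, adjusted p = 0.000316), d44 (-1.39 ± 0.22, 0.00649), d35 (-1.11 ± 0.28, 0.0121) and d41-44 (-1.18 ± 0.16, 0.000708). At d37-39 in the DSD pedigree the difference of -1.06 ± 0.31 did not pass (0.0583), and it passed without the XY embryo C3638 (0.0206), the highest of its group at 0.988 FPKM. It also passed with a pseudocount of 0.1 (0.00839), without the filter (0.035), without the variance trend (0.0117), in a fit of all groups (6.71e-05) and with named loci alone (0.00212). In the d34 pools it was 0.0491 FPKM in XX and was listed at 0 in XY.

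The shared locus of *HSD17B1* (CFA9:20404974-20486452, minus strand), an enzyme of oestrogen synthesis, gave 27.6 to 84.4 FPKM in XX and 31.9 to 53.0 in XY. The 3 XX controls of d44, at 84.4, 78.2 and 80.6, lay above every other library, the next highest being at 53.4. Accordingly XY controls of d44 were lower (-0.88 ± 0.08, adjusted p = 0.000966), and the difference was 0.01 ± 0.09 in controls of d37-39 (0.951). In the DSD pedigree the differences of 0.34 ± 0.13 at d35 (0.0773) and -0.28 ± 0.12 at d41-44 (0.106) did not pass, and they passed without C3574 (0.0288) and without the XX embryo C3684 (0.0425).

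*LHCGR* (CFA10:50537601-50598504, minus strand), the receptor that drives steroid output in Leydig cells, was 0.810 to 13.6 FPKM in XX gonads (median 5.63) and 2.26 to 34.4 in XY gonads (median 22.3). XY littermates had 2.26, 11.8, 8.86 and 13.2 FPKM at d35, and 22.3 to 34.4 at d37-42. Both sexes were therefore low at d35, with C3574 again lowest and inside the XX range. The differences were 1.69 ± 0.19 and 1.57 ± 0.23 in controls of d37-39 and d44, and 1.60 ± 0.22 and 1.72 ± 0.19 in the DSD pedigree at d37-39 and d41-44 (adjusted p from 2.58e-05 to 0.00466). At d35 the difference was 1.21 ± 0.38 (adjusted p = 0.0367), and it did not pass without any one of the XX embryos C3510 (0.0518), C3571 (0.0586), C3525 (0.0593) and C3572 (0.053) or the XY embryos C3618 (0.13), C3619 (0.103) and C3617 (0.143).

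The shared *INSL3* locus (CFA20:45051135-45074695, plus strand) was 6.48 to 120 FPKM in XX gonads (median 28.1) and 36.5 to 1762 in XY gonads (median 541). XY littermates had 36.5, 200, 173 and 250 FPKM at d35, 345, 469, 541, 957 and 1042 at d37-39, and a mean of 838 ± 261 (SD, n = 3) at d41-42, while XY controls of d44 had 1722, 1762 and 1334. No XX gonad overlapped the XY gonads of its comparison. The differences were 3.88 ± 0.44 and 5.43 ± 0.17 in controls, and 3.13 ± 0.44, 3.58 ± 0.40 and 4.51 ± 0.58 in the DSD pedigree (adjusted p from 2.09e-05 to 0.000481).

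**Figure D1:**
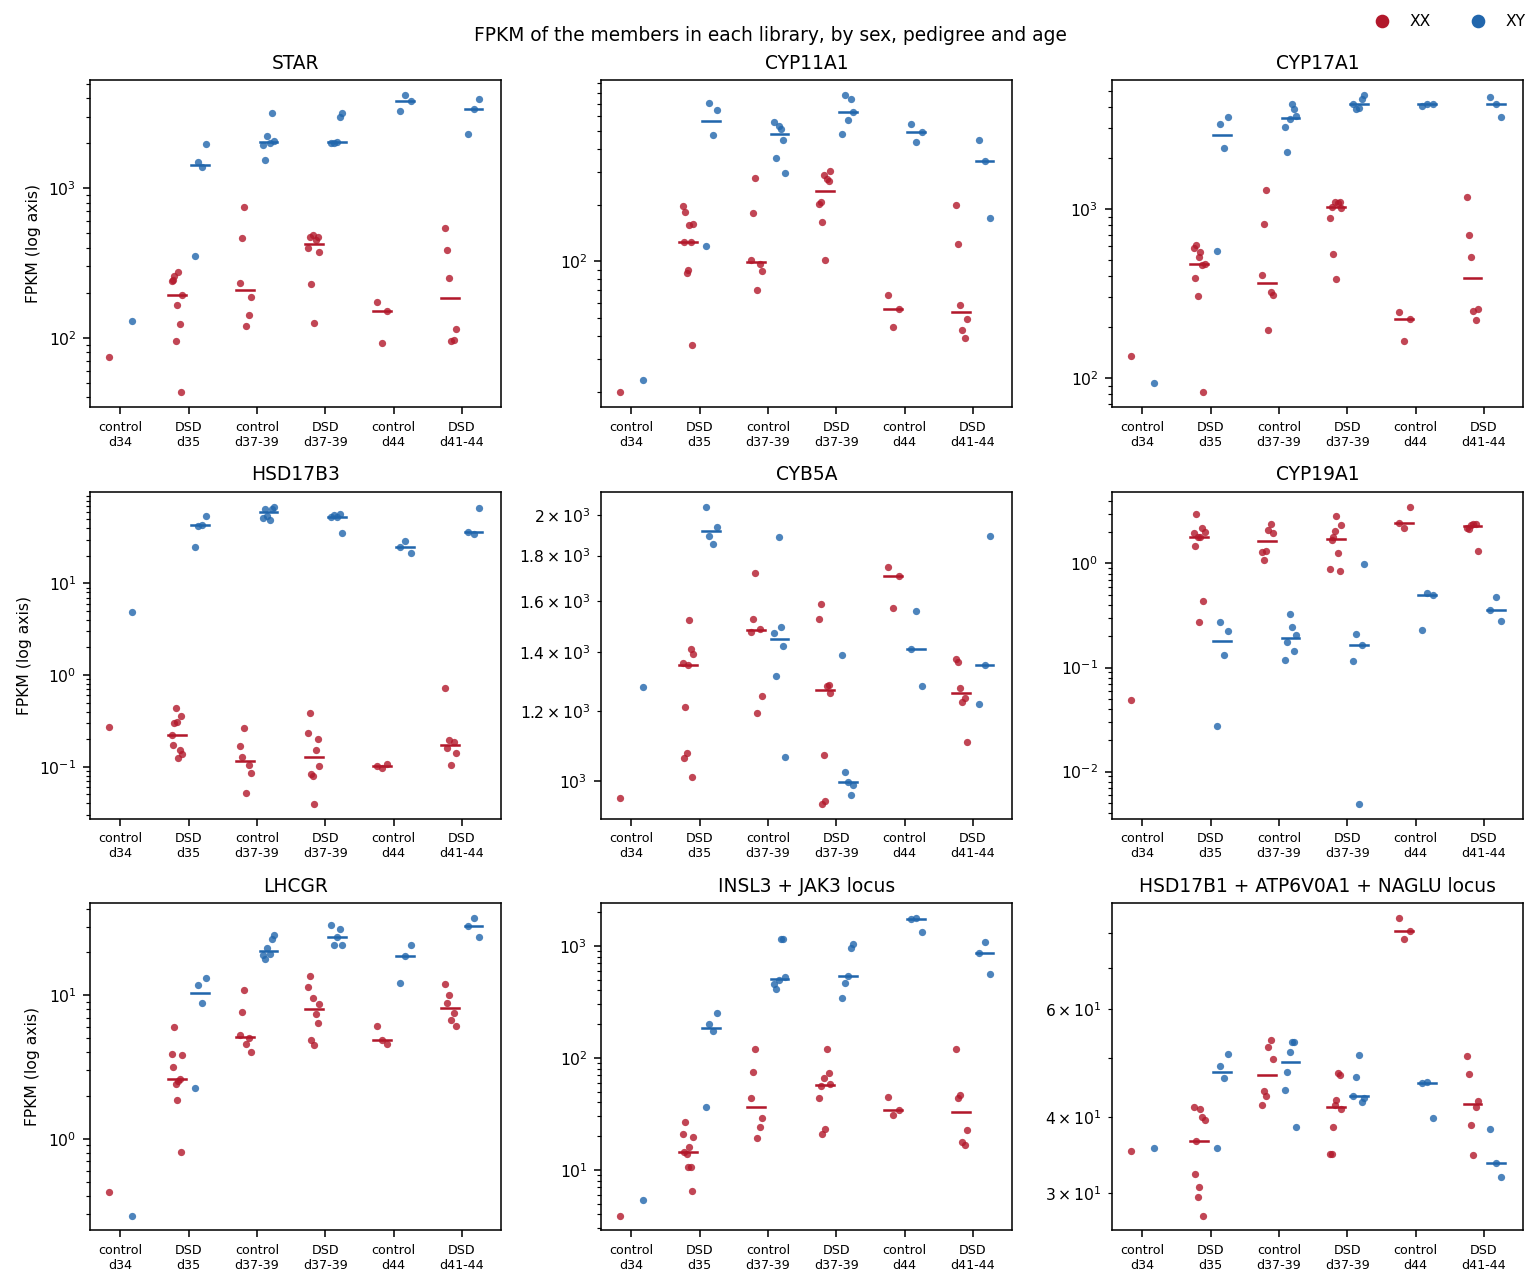
Level (FPKM, log axis) of the 9 genes with a locus in each library, by group; points are libraries, short lines are group medians, and the XY d34 pool's *CYP19A1*, listed at 0, is not drawn. XX and XY gonads separate without overlap for *HSD17B3* over all ages, while over all ages the levels of *CYB5A* share most of their range, with gaps at d35 and in the d44 controls.

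Read by comparison, 7 of 9 members passed the test in controls of d37-39, where 26.5% of all loci tested did, and 8 of 9 in d44 controls, where 24.8% did. In the DSD pedigree 8 of 9 passed at d35 (21.4% of all loci), 6 of 9 at d37-39 (7.49%) and 7 of 9 at d41-44 (28.3%). *STAR*, *CYP11A1*, *CYP17A1*, *HSD17B3*, *LHCGR* and the *INSL3* locus were higher in XY in all 5. At d41-44 the XY littermates were of d41-42, 2 of 3 heterozygous, while the XX gonads were homozygous and ran to d44. The sizes of the differences there therefore mix sex with day, litter and genotype. *HSD17B3* in XX (at most 0.726 FPKM) and *CYP19A1* in XY (at most 0.988) entered these tests only through the other sex. Their calls in these counts are therefore not independent of the filter. Fitted with litter as a fixed factor, the d35 comparison kept 4 of 8 calls: *CYP11A1* (adjusted p = 0.195), *CYP17A1* (0.115), *CYB5A* (0.0741) and *LHCGR* (0.242) did not pass.

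**Figure D2:**
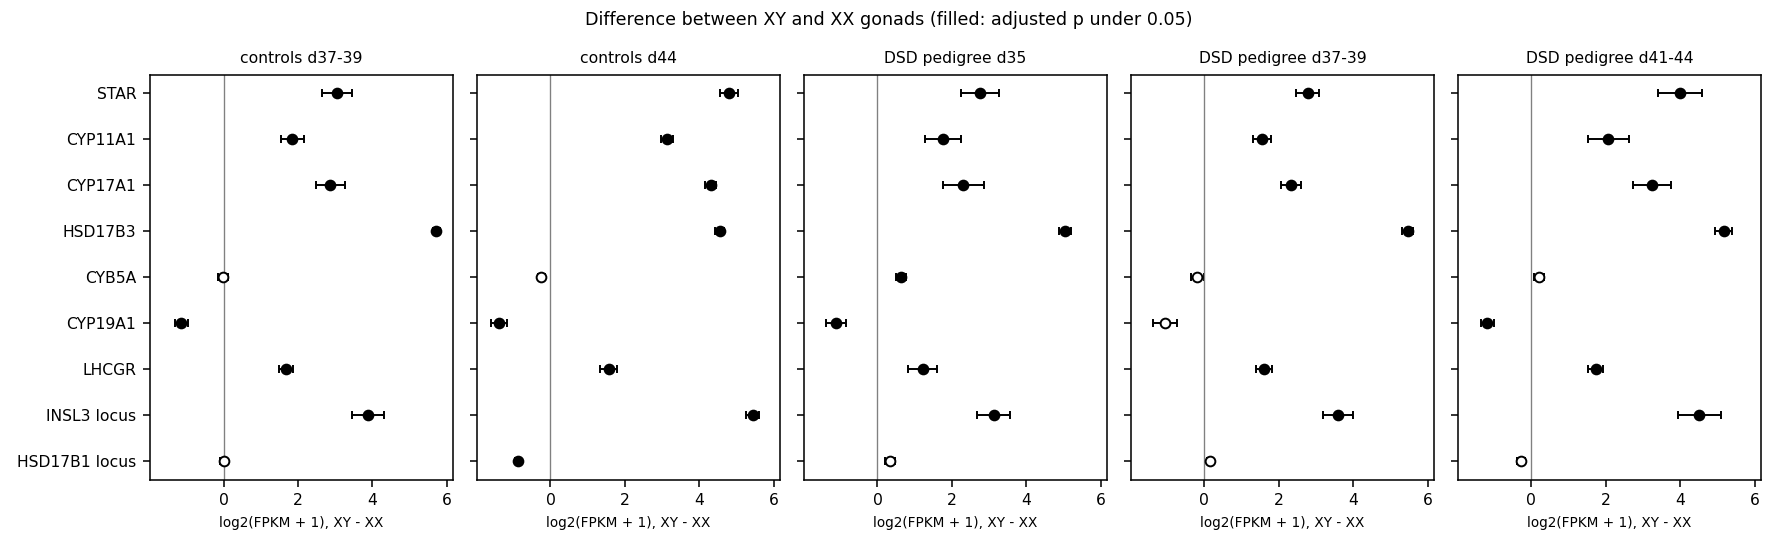
Difference between XY and XX gonads (log2(FPKM + 1), XY minus XX) for each gene in the 5 comparisons of sex; bars are SE and filled points have an adjusted p below 0.05. *HSD17B3* lies at 4.55 to 5.71, the *INSL3* locus at 3.13 to 5.43, and *CYP19A1* lies left of 0 in every comparison.

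XX DSD gonads at risk were then set against XX controls. At d37-39, where 13.8% of all loci differed, none of the 8 members tested did by limma, and 3 had an unadjusted p under 0.05. *CYP17A1* had a median of 1020 FPKM in XX DSD gonads (lowest 382) and 365 in controls (192 to 1288), which overlapped, for a difference of 0.90 ± 0.39 (adjusted p = 0.153). *CYP11A1* was 102 to 304 FPKM against 70.2 to 281 (0.83 ± 0.31, adjusted p = 0.1), and *HSD17B3* was under the filter of 1 FPKM in both groups.

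The d37 and d39 controls differed from each other. *CYP17A1* was 406 to 1288 FPKM in the 3 controls of d37 and 192 to 324 in the 3 of d39, without overlap. The 6 XX DSD gonads of d39 had at least 382 FPKM, with a median of 1045, above all d39 controls, and the 2 of d37 (878 and 1032) lay inside the d37 controls. Within d39 alone *CYP11A1* (1.36 ± 0.35, adjusted p = 0.042) and *CYP17A1* (1.58 ± 0.38, 0.0337) were higher and the *HSD17B1* locus lower (-0.26 ± 0.07, 0.0449) in XX DSD gonads. Over d37-39 *CYP11A1* (0.0217) and *CYP17A1* (0.033) also passed without the control A1101, and *CYP11A1* without the XX DSD embryo C3636 (0.0375). The d39 controls were 1 litter and the d39 XX DSD gonads 3, so litter and pedigree cannot be told apart.

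**Figure D3:**
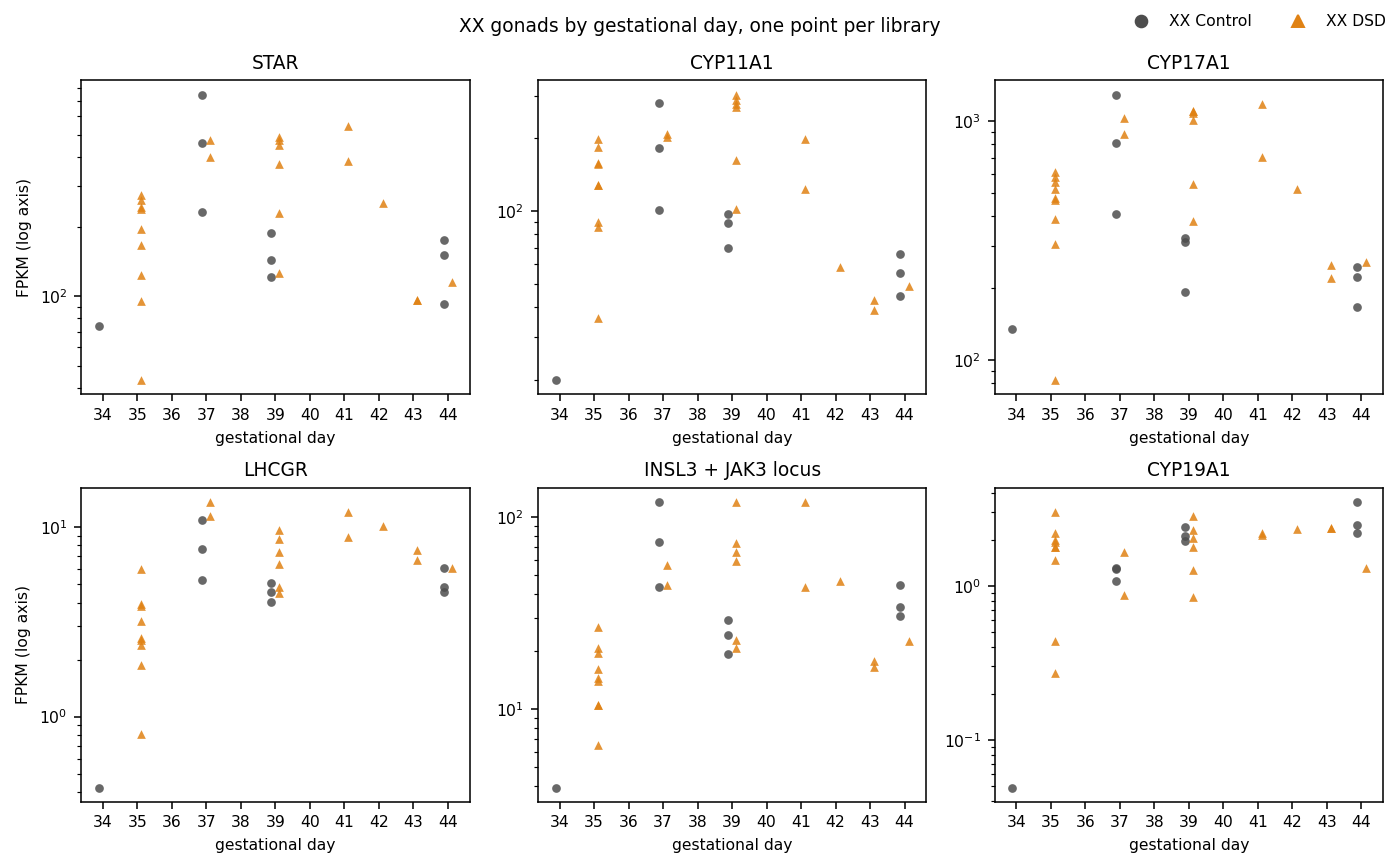
Level (FPKM, log axis) of the members in XX gonads by day of gestation; points are single embryos of the DSD pedigree and of the controls. *CYP17A1* of the DSD pedigree is at 703 and 1179 FPKM in the litter labelled d41 and at 220 to 257 in those of d43-44, beside 166 to 244 in the d44 controls.

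At the oldest ages, where 48.5% of all loci differed, 3 of 8 members did. *CYB5A* was at most 1376 FPKM in XX DSD gonads (median 1259) and 1748, 1570 and 1707 in d44 controls, without overlap (-0.41 ± 0.07, adjusted p = 0.00125). The *HSD17B1* locus was 34.7 to 50.4 FPKM (median 41.96) against 78.2 to 84.4 (-0.93 ± 0.10, 8.86e-05). *LHCGR* was 6.10 to 12.02 FPKM (median 8.20) against 6.08, 4.84 and 4.54, just without overlap (0.61 ± 0.19, 0.0239). That call was lost without the control A1107 (0.0824) or A1110 (0.103), without the d41 gonads (0.0533) and with litter as a random block (0.0527).

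Within these 6 XX DSD gonads *STAR*, *CYP11A1*, *CYP17A1* and the *INSL3* locus differed between days, each of which was a single litter, so that day and litter cannot be told apart. *CYP17A1* was 1179 and 703 FPKM at d41, 520 at d42, 250 and 220 at d43 and 257 at d44. *STAR* was 546 and 385 FPKM at d41, 252 at d42, and 96.0, 96.5 and 115 at d43-44, and the *INSL3* locus 120, 43.5, 46.6, 17.8, 16.6 and 22.7 in the same order. The litter labelled d41, restaged as given above, was the high one in *CYP17A1*, *STAR* and, by C3694, the *INSL3* locus, and the d43-44 gonads lay close to the d44 controls in *CYP17A1* and *STAR* and below them in the *INSL3* locus. With d43 and d44 alone, a choice made after seeing the data, the differences of *STAR* and *CYP11A1* from the controls changed sign, from 0.54 to -0.39 ± 0.24 (adjusted p = 0.251) and from 0.35 to -0.33 ± 0.16 (0.154), the *INSL3* locus was lower in XX DSD gonads (-0.90 ± 0.17, adjusted p = 0.00714) and *LHCGR* did not pass (0.34 ± 0.12, 0.062).

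XY littermates and XY controls gave no call among the 8 members tested, at d37-39 (1.29% of all loci) or at the oldest ages (11.2%). Of the 8, 2 and then 4 had an unadjusted p under 0.05. The 3 XY littermates of d41-42 lay below the d44 controls in the *INSL3* locus, with a mean of 838 FPKM and a lowest value of 567 against 1722, 1762 and 1334 (-0.98 ± 0.26, adjusted p = 0.0611). They lay above them in *HSD17B3*, at 35.9, 34.3 and 66.3 FPKM against 24.7, 29.0 and 21.2 (0.79 ± 0.28, 0.107), and in *LHCGR*, at 30.5, 34.4 and 25.5 FPKM against 12.1, 18.7 and 22.3 (0.77 ± 0.24, 0.0805). With litter as a random block all 3 passed (0.0137, 0.0282 and 0.0199), as did the *HSD17B1* locus (-0.34 ± 0.09, 0.0303), with an estimated correlation within litters below 0. That fit called 6310 loci over the whole table, against 2146 of the 19137 tested without the block. The littermates were younger than these controls.

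By limma no difference between the sexes in the change with pedigree passed for the 9 members, at d37-39 (0.00514% of all loci called, no member with an unadjusted p under 0.05) or at the oldest ages (0.115%, 2 members with one). *HSD17B3* in XX and *CYP19A1* in XY were under 1 FPKM and entered only through the other sex, so nothing can be read for them. The 2 were *CYB5A* (XX change minus XY change -0.46 ± 0.18, adjusted p = 0.318) and the *HSD17B1* locus (-0.60 ± 0.16, 0.161). The comparisons of sex and of pedigree share libraries and are not independent.

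**Figure D4:**
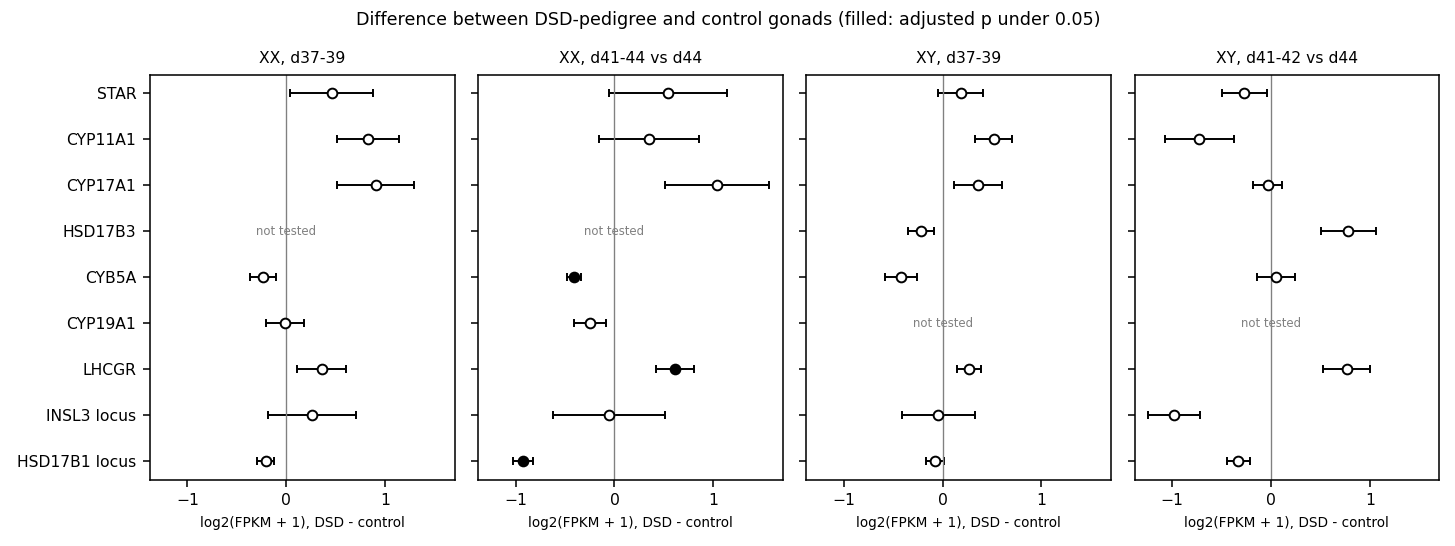
Difference between the DSD pedigree and controls (log2(FPKM + 1), pedigree minus control) in XX and in XY gonads at both ages; bars are SE, filled points have an adjusted p below 0.05, and members under the filter are marked as not tested. The 3 filled points are *CYB5A*, the *HSD17B1* locus and *LHCGR* in XX gonads of the oldest ages.

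With age, few members moved within a group. In XX controls, d44 against d37-39, 1 of 8 passed (2.61% of all loci), the *HSD17B1* locus (0.77 ± 0.09, adjusted p = 0.00523). In XY controls 1 of 8 passed (0.138%): *HSD17B3* was 49.0 to 68.5 FPKM at d37-39 and 24.7, 29.0 and 21.2 at d44 (-1.21 ± 0.14, 0.0165), and did not pass without A1106 (0.0704) or A1109 (0.0588). *STAR* and the *INSL3* locus of XY controls were higher at d44 without overlap and did not pass (0.198 and 0.267).

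In XX DSD gonads from d35 to d37-39, 2 of 8 rose (4.87% of all loci): *LHCGR* from a median of 2.61 to 8.05 FPKM (1.23 ± 0.24, adjusted p = 0.00657) and the *INSL3* locus from 14.5 to 57.7 (1.74 ± 0.31, 0.00374). *STAR* (1.12 ± 0.36, 0.0774) and *CYP17A1* (1.10 ± 0.34, 0.0727) did not pass. They passed without the d39 embryo C3636 (0.0346 and 0.0483), and *CYP17A1* also without the d35 embryo C3575 (0.0412), the lowest of its group at 82.1 FPKM. In XY littermates over the same step, 3 of 8 passed (11.5%), *LHCGR* (1.62 ± 0.39, 0.0288) and the *INSL3* locus (2.19 ± 0.57, 0.04) upward and *CYB5A* downward, from 1853 to 2044 FPKM to 964 to 1388 (-0.86 ± 0.15, 0.00738). The median over all loci in that comparison was 0.63. The *LHCGR* call was lost without C3619 (0.0703), C3516 (0.0651), C3626 (0.0522), C3627 (0.0555) or C3637 (0.0611), and the *INSL3* call without C3618 (0.0683), C3619 (0.0831), C3626 (0.0639), C3627 (0.0662), C3637 (0.0833) or C3638 (0.0777). Without the libraries rich in unnamed loci, 3 of the 5 XY gonads of d37-39, neither passed, at 1.64 ± 0.62 for *LHCGR* (0.138) and 1.58 ± 0.79 for the *INSL3* locus (0.228).

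From d37-39 to d41-44, 1 of 8 passed in XX DSD gonads (2.73% of all loci): *CYP11A1* fell from a median of 240 FPKM (102 to 304) to 53.8 (38.8 to 199), by 1.61 ± 0.36 on the log2 scale (adjusted p = 0.0406). The call was lost when any of 10 of the 14 embryos was left out (C3624, C3630, C3642, C3632, C3633, C3696, C3517, C3684, C3688 and C3659, adjusted p from 0.0577 to 0.1). In XY littermates none of 8 passed by limma (0.0348%), and 2 had an unadjusted p under 0.05, *CYP11A1* (-1.08 ± 0.31, adjusted p = 0.27) and the *HSD17B1* locus (-0.38 ± 0.09, 0.231). The median over all loci in this comparison of XY littermates was -0.44.

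*CYP17A1* exceeded *CYP11A1* in FPKM, a level per length, in every library, and within each age from d35 on the mean ratio was larger in XY groups than in the XX groups of that age. The ratio was 3.77 ± 0.71 (SD, n = 6) in XX and 7.79 ± 2.38 (n = 6) in XY controls of d37-39, and 3.80 ± 0.18 and 8.46 ± 1.02 (n = 3 each) at d44. XX DSD gonads of d41-44 had 6.204 ± 1.331 (5.24 to 8.88), above the XX controls of d44 without overlap. The ratio reached 10.3, 12.2 and 20.3 in XY littermates of d41-42, of which the highest is the embryo with the lowest *CYP11A1*. Within XX gonads *STAR* and *CYP17A1* moved together (r = 0.94 over 32 libraries), as did *LHCGR* and the *INSL3* locus (r = 0.822), while *CYB5A* did not follow *CYP11A1* (r = 0.11). Within XY gonads r was 0.905 for *STAR* with the *INSL3* locus and 0.385 for *STAR* with *CYP11A1* (21 libraries). The points share litters, age and scaling, so these values are descriptions.

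Of 13936 loci searched over the 53 libraries of single embryos, those most like *CYP17A1* were *SEL1L3* (r = 0.982), *STAR* (0.979) and *SCARB1* (0.974). Those most like the *INSL3* locus were *SLC43A2* (0.974), *LMAN1L* (0.972) and *LRAT* (0.969). *CYP19A1* was most like *LIN7A* (0.93), *DMXL2* (0.909) and *PPAPDC1A* (0.903), with *FOXL2*, a transcription factor of granulosa cells, at 0.901. The points include both sexes and share litters and scaling, and likeness within a sex was not run for these loci.

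Other genes of steroid synthesis were read as a list of 36, of which 31 had a locus. In controls of d37-39, where 26.5% of all loci passed, 16 of 29 tested were higher and 2 lower in XY (median 0.41, against 0.01 over all loci). They were led by *FSHR*, the follicle stimulating hormone receptor (2.52 ± 0.20), *HSD11B1* (2.64 ± 0.22), *HSD11B2* (-1.30 ± 0.13) and *SRD5A3* (-0.56 ± 0.07). In d44 controls, where 24.8% of all loci passed, 12 of 28 were higher and 3 lower (median 0.25 against -0.04). Among them were *SCARB1*, a receptor for lipoprotein cholesterol (3.00 ± 0.09), and *FDX1*, the electron donor of *CYP11A1* (3.85 ± 0.18). In the DSD pedigree 11 of 29 were higher and 3 lower at d35 (21.4% of all loci passed), 11 and 2 at d37-39 (7.49%), and 14 and 4 at d41-44 (28.3%). At d37-39 the list's median of 0.25 lay under that of all loci, 0.28.

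Between XX DSD gonads and XX controls the same list had 4 higher and 3 lower of 29 at d37-39, where 13.8% of all loci passed. At the oldest ages, where 48.5% of all loci passed, 4 were higher and 13 lower, with a median of -0.28 against -0.09. Those with the lowest adjusted p were *HSD11B2* (-0.85 ± 0.05), *GATA4* (-0.67 ± 0.04), *HSD17B10* (-0.47 ± 0.05) and the *GATA6* locus (-0.60 ± 0.06). In XY gonads 1 of 29 was lower at d37-39 (1.29% of all loci passed) and 6 of 28 at the oldest ages (11.2%), with none higher. Among them were *TSPO* (-1.41 ± 0.15) and *FDXR*, the reductase that feeds *FDX1* (-1.12 ± 0.17). With age, at most 5 of 29 passed in any group, where 0.0348 to 11.5% of all loci did.

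A list of 15 fetal Leydig and interstitial genes, 14 with a locus, had 7 of 13 higher in XY controls of d37-39 (26.5% of all loci passed) and 5 of 13 at d44 (24.8%), with none lower. In the DSD pedigree 5 of 13 were higher and 3 lower at d35 (21.4%), 6 and 0 at d37-39 (7.49%), and 9 and 1 of 14 at d41-44 (28.3%). *DLK1*, a marker of fetal Leydig cells and their precursors, was 25.1 to 127 FPKM in XY controls of d37-39 and 0.179 to 0.669 in XX controls. At the oldest ages it was 31.76 to 41.05 FPKM in XY controls and 9.67 to 14.8 in XY littermates (-1.52 ± 0.18, adjusted p = 0.0285), while XX gonads stayed at 0.214 to 0.613. The list had 2 higher and 2 lower of 12 between XX DSD gonads and XX controls at d37-39 (13.8% of all loci passed), and 2 and 4 of 13 at the oldest ages, a share near the 48.5% of all loci. Between XY littermates and XY controls none of 13 passed at d37-39 (1.29%). At the oldest ages 4 of 13, *DLK1* among them, were lower and none higher (11.2%).

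Markers of other cells were read beside these results, and their part in them was not tested. The summed levels given here are from d35 on, and some sums of the d34 pools lay outside them, such as 149 FPKM for endothelial genes in XY. Of 7 Sertoli genes tested, 6 were higher in XY in all 5 comparisons, where 7.49 to 28.3% of all loci passed. The other one, *FGF9*, was lower in XY at d41-44 (-0.68 ± 0.18, adjusted p = 0.0237). The summed level was 754 to 3603 FPKM in XY and 375 to 1079 in XX. This sum leaves out *DHH*, which was tested but shares its locus, and holds *SOX8*, which was not tested. *AMH* had no locus in the assembly and is in neither. In the table of annotated genes its group means from d35 on were 1279 to 5013 FPKM in XY and 4.05 to 17.1 in XX, without a test. All pre-granulosa genes tested (6 or 7 of 8) were lower in XY, with a sum of 10.4 to 32.7 FPKM against 72.5 to 302. In the d34 pools, which were not tested, this sum was 80.52 FPKM in XY and 98.05 in XX. Adrenal cortex, which makes steroids with the same early enzymes, had 3 of 5 genes with a locus. Their sum was 1.55 to 10.7 FPKM in XY and 0.593 to 3.32 in XX, *MC2R* was higher in XY in all 5 comparisons and *CYP21* in the 2 of controls, *MRAP* reached at most 0.955 FPKM, and *CYP11B1* and *CYP11B2* had no locus. For germ cells (5 of 9 with a locus) the sum was 10.8 to 36.4 FPKM in XY and 8.53 to 22.4 in XX, but the genes went both ways: *KIT* was higher and *MAEL* lower in XY in all 5 comparisons, and *TFAP2C* was lower in 2. Adrenal medulla and nerve genes (5 of 5) summed to 36.2 to 89.4 FPKM in XY and 20.6 to 87.0 in XX, most of it from *CHGA*, and mesonephros genes (6 of 6) to 4.64 to 10.4 and 6.91 to 14.8. Endothelial genes (4 of 4) summed to 59.3 to 107 FPKM in XY and 88.2 to 155 in XX, but they too went both ways. *TEK* was lower in XY in all 5 comparisons and *KDR* in all but the DSD pedigree at d41-44. *PECAM1* was higher in XY in controls of d37-39 and in the DSD pedigree at d37-39 and d41-44. Macrophage genes (5 of 5) summed to 10.9 to 33.8 FPKM in XY and 12.2 to 42.1 in XX. Of the erythroid genes (4 of 4 with a locus) 3 were summed, to 9.70 to 45.7 and 7.59 to 91.9. The shared locus of *HBM*, with a mean of 112.9 FPKM in XX DSD gonads of d35, was left out. Between XX DSD gonads and XX controls of the oldest ages, 2 of 6 Sertoli, 3 of 7 pre-granulosa, 2 of 5 macrophage and 1 of 4 endothelial genes were lower, each a share under the 48.5% of all loci. *CHGA* (-0.82 ± 0.14, adjusted p = 0.000833) and *CYP21* (-0.52 ± 0.18, 0.0412) were also lower there.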

How the data were processed

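Gene expression in paired gonads of canine embryos was measured by polyA RNA-seq, 1 library per embryo, or 1 per pool at d34. Per the submitters' processing notes, the authors trimmed reads with cutadapt (1.5; the study's methods give another version), mapped them to CanFam3 with TopHat2 (2.0.13) and used Cufflinks (2.2.1). The deposited values are in FPKM from Cuffnorm, scaled across libraries by the authors and by transcript length, without read counts. Read depth is therefore not given, and relative depth was estimated from the steps of values up to 0.15 FPKM.

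Members were matched by gene name to loci of the assembly file. Groups came from the labels, and litters and genotypes from the study's list of embryos. For each of 17 comparisons limma (3.58.1, R 4.3.3; trended variance) was fitted to log2(FPKM + 1) over the loci whose mean reached 1 FPKM in one of the groups, with Benjamini-Hochberg adjustment and a threshold of 0.05. A combined fit tested whether pedigree changes differed between the sexes. The script was tested on simulated data. Named genes were all members, the loci most correlated with them, and up to 4 genes per list and comparison with the lowest adjusted p. *MC2R*, *CYP21*, *MRAP*, *CHGA*, *FGF9*, *AMH*, *HBM*, *KIT*, *MAEL*, *TFAP2C*, *TEK*, *KDR* and *PECAM1* were named after their values were seen. Lists held genes of steroid synthesis, fetal Leydig and interstitial genes, and markers of 9 other cell types. The members and lists were chosen with earlier results of these data known. No promoter or protein sequence was used here.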

Additional observations from a re-analysis of the deposited data

Results flagged for a closer look

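The values were checked in 63 sets, each 1 gene in 1 group of 4 to 10 libraries. In 6 sets a library lay farther from the rest than Dixon's 95% limit, where chance gives about 1 in 20. The sets share libraries and are not independent. The XY littermate C3638 of d37-39 was the lowest of its group in *HSD17B3*, at 35.7 FPKM, and the highest in *CYP19A1*, at 0.988 FPKM. It is also 1 of the 4 libraries rich in unnamed loci. The XX DSD gonad C3694 of d41 was the highest of the d41-44 group in *HSD17B3*, at 0.726 FPKM, and in the *INSL3* locus, at 120 FPKM. The XX DSD gonad C3659, the only one of d44, was the lowest of that group in *CYP19A1*, at 1.305 FPKM. The XY littermate C3516, the only one of d37 in its group, was the highest in *CYB5A*, at 1388 FPKM.

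*DLK1* passed the test of a difference between the sexes in the change with pedigree at the oldest ages, at 1.60 ± 0.21 on the log2 scale (XX change minus XY change, limma, adjusted p = 0.00699). *DLK1* was lower in XY littermates than in XY controls (-1.52 ± 0.18). The XX means, 0.381 and 0.309 FPKM, were under the filter, where log2(FPKM + 1) can hardly move, so the value restates the change in XY gonads and the change in XX gonads cannot be read. In a fit of all groups together no locus passed that test (0, against 26 in the fit of 4 groups). The littermates were labelled 2 to 3 days younger than the controls, and day and pedigree cannot be told apart.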

How the results depend on the processing

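Of the fold changes of called members under alternatives that left out no single library, none reversed, 345 kept their direction and side of the threshold and 20 lost the call, while 23 calls were gained. Of 1990 values of uncalled members, 71 changed sign and none of these passed. Those with a size over 0.3 before were *STAR* and *CYP11A1* between XX DSD gonads and XX controls of the oldest ages, at -0.07 and -0.22 without d41 and -0.39 and -0.33 with d43 and d44 alone, and *STAR* in the test between the sexes there, from 0.81 to -0.02 without d41. Of the counts of members called and the estimates of relative depth, 314 stayed within 1.5 times, 11 rose and 22 fell. With litter as a fixed factor, 4 members passed between XY littermates and XX DSD gonads at d35. Between XX DSD gonads and XX controls of d37-39, d39 alone gave 3 and leaving out 1 library 0 to 2. Between XY littermates and XY controls, a fit of all groups gave 1 at d37-39 and 1 at the oldest ages, where litter as a random block gave 4 and named loci alone 2. XY controls of d44 against d37-39 gave 0 to 1 when 1 library was left out. From d35 to d37-39, XX DSD gonads gave 4 in a fit of all groups, 4 with named loci alone and 2 to 4 with 1 library left out, and XY littermates 1 without the variance trend, 1 without the 4 libraries rich in unnamed loci and 1 to 3 with 1 left out. From d37-39 to d41-44, XX DSD gonads gave 0 without the filter, 0 without the trend, 0 with litter as a random block, 2 without d41 and 0 to 1 with 1 left out. Over all loci, counts of calls moved by more than 1.5 times in several comparisons. They went from 3470 to 5 between XX DSD gonads and XX controls of d37-39 and from 416 to 5 between the XY groups of that age with 1 value per litter, from 2146 to 6310 between the older XY groups (and to 40 without the filter), from 1178 to 430 and from 672 to 37 for age in XX DSD gonads and from 11.5% of the loci to 1542 loci in XY littermates with litter as a random block, and from 21.4% of the loci to 1536 loci and from 5598 to 3435 between the sexes of the pedigree at d35 and d41-44 with litter as a fixed factor. A fit of all groups gave 13159 against 2814 between the sexes of the pedigree at d37-39, 96 against 508 and 394 against 28 for age in XX and XY controls, and 1337 against 11 for XY littermates from d37-39 to d41-44. Between the sexes of controls of d37-39, d39 alone gave 3264 against 5609. The causes were not tested. Depth limits the members near or under 1 FPKM, *CYP19A1* and, in XX gonads, *HSD17B3*. The fits without the 4 libraries, with named loci alone and with d43 and d44 alone were chosen after seeing the data. The table of annotated genes was not run for the members, since its identifiers were not paired with them here, and only its *AMH* row was read. No paired analysis was possible because embryos carry identifiers of their own, and litter was used instead.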
